A study of Mus musculus with 46 samples.

Results

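The metallothionein, hepcidin and iron handling genes described here are Mt1, Mt2, Slc30a1, Hamp, Hamp2, Tfrc, Tfr2, Slc40a1, Bmp6 and Cp. They were chosen by symbol, with earlier results of these data known, and all 10 were found among the 17242 genes of the 12-week table and among the 18531 genes of the 18-month table. RNA was measured by sequencing in kidney and liver of wild-type C57BL6 mice, in a series that set castration beside sex in healthy ageing. CasM are males castrated at 8 weeks of age, ShamF are females and ShamM are males that had sham surgery at that age, with sampling at the age of 12 weeks or 18 months. All were kept on normal water and chow in pathogen-free housing. Age, tissue and arm define 12 groups with 46 libraries in all. CasM groups hold 6 libraries per tissue at 12 weeks and 5 at 18 months, and each ShamF and ShamM group holds 3. The sources used here do not say whether animals were pooled in a library.

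Metallothioneins are small cysteine-rich proteins that bind zinc and copper, and their genes are switched on by the zinc-sensing factor MTF1 and by glucocorticoids. Hepcidin is a peptide hormone of hepatocytes that removes ferroportin, the iron exporter encoded by Slc40a1, from the cell surface and so lowers the release of iron into blood. The Hamp gene is driven by BMP6 and BMP2, which endothelial cells of the liver release when iron is plentiful, through SMAD proteins, and by interleukin 6 through STAT3. Mice carry Hamp2, a close copy of Hamp whose part in iron balance is less well established. Iron regulatory proteins bind hairpins in mRNA, called iron responsive elements: they protect the transferrin receptor mRNA Tfrc and block translation of the Slc40a1 mRNA when iron is low.

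The sequences of the regulatory stretches are shown first, because the hepcidin copies differ in a known response element and the iron genes carry known hairpins. Promoter windows are the 250 bases before the RefSeq start in build GRCm38.p6 (mm10), and positions count back from -1, the base before the start. Hamp lies at chr7:30942368-30944029 and Hamp2 at chr7:30922372-30924181, both on the minus strand and 18.2 kb apart. The windows shown are chr7:30944030-30944279 for Hamp and chr7:30924182-30924431 for Hamp2, the second of which falls in an intron of a longer annotated Hamp2 transcript. Capitals mark the BMP response element GGCGCC in Hamp and the aligned bases in Hamp2.
Hamp: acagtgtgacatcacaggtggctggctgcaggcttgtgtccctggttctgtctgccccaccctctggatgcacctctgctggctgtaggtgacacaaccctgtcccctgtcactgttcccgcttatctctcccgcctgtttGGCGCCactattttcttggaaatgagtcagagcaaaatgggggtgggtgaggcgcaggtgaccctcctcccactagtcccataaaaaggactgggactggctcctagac
Hamp2: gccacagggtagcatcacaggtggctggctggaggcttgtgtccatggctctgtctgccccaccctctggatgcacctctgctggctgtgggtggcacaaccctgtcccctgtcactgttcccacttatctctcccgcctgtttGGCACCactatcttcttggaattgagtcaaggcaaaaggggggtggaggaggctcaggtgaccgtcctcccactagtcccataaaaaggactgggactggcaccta

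The aligned windows were 91.9% identical, with 20 substitutions, and 1 of them, G145A, lies inside the element (positions counted from 1 at the 5′ end of the Hamp window). Hamp held GGCGCC once, starting at -109, and Hamp2 held none in this window. GGCGCC reads the same on both strands and was present in 9.59% of 32851 RefSeq promoter windows of this length. A STAT site of the form TTCNNNGAA, searched after the sequences had been seen, stood at -97 in Hamp and at -94 in Hamp2, and 7.02% of the windows held one. The Hamp and Hamp2 transcripts, of 410 and 420 bases, were 92.4% identical, but 0 of the 261 stretches of 150 bases in Hamp, the read length, occurred unchanged in Hamp2. The counting of reads shared by the copies is not described in the sources used, so each copy's level carries that uncertainty.

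Mt2 lies at chr8:94172618-94173567 and Mt1 at chr8:94178883-94180327, on the plus strand and 5.32 kb apart. Their windows were searched for the core of the metal response element, TGCACNC or TGCGCNC, on both strands, the sequence that MTF1 binds. The Mt2 window is chr8:94172368-94172617, and the Mt1 stretch, chr8:94179055-94179084, is limited to 30 bases around its match because it overlaps an annotated transcript. The Mt1 stretch lies inside the Mt1 locus given above, so the start used for Mt1 is downstream of the first base of that locus. The Mt1 and Mt2 windows are therefore not alike, and their numbers of matches are not compared. Capitals mark the matches.
Mt2: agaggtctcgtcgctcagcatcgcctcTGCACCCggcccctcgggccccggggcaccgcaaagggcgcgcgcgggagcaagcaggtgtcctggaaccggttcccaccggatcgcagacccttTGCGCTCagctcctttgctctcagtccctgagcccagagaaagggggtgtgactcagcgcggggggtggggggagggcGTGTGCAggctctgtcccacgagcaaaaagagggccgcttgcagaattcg
Mt1: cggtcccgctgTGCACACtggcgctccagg

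Mt2 held 3 matches, at -223, -128 and -50, the last on the opposite strand, and Mt1 held 1, at -23. At least 1 match was present in 21.4% of all windows and at least 3 in 1.26%. A match describes letters only, and elements outside these windows were not searched. The Mt1 and Mt2 transcripts were 60.7% identical, and 0 of 400 stretches of 150 bases in Mt1 occurred unchanged in Mt2.

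The iron responsive element was searched in GENCODE vM21 transcripts (GRCm38) as the loop CAGTGN, set in capitals, on 5 paired bases with an unpaired C below them. Tfrc held 4 in its 3′ UTR on chromosome 16, plus strand, and Slc40a1 held 1 in its 5′ UTR on chromosome 1, minus strand.
Tfrc chr16:32631220-32631247: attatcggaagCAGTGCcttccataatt
Tfrc chr16:32631599-32631626: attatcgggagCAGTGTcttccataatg
Tfrc chr16:32631664-32631691: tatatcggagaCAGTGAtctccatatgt
Tfrc chr16:32631711-32631738: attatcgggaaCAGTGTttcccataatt
Slc40a1 chr1:45925465-45925492: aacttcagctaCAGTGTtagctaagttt

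The shape occurred at least once in 1.34% of 21877 protein-coding genes, and Tfrc was the 1 gene with 3 or more. The Tfrc hairpins bear on the mRNA level, whereas the Slc40a1 hairpin bears on translation. The Slc40a1 mRNA level is therefore not a readout of its hairpin, and no protein was measured here.

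Expression values are the authors' group means, 1 per group and without a spread, so no test across libraries could be computed here and the depth per library is unknown. At 12 weeks they are FPKM, a fragment count divided by transcript length and by library size. At 18 months their unit is not named, so levels of different genes are compared there only within pairs of near-equal transcript length. For the same reason, 18-month ratios between kidney and liver assume that both tissues are on a common scale, which was not tested. Tests are the authors' own: "called" means an adjusted p under 0.05 in their deposited tables, and "rose" and "fell" are used of called genes. Each gene appears in the 12-week tables for 1 of the 3 comparisons, chosen by an unstated rule, so its other comparisons have no test here. At 18 months every comparison has a log2 fold from the authors' DESeq2 test, given here as CasM or ShamF over ShamM, or CasM over ShamF, with a standard error implied by the fold and its p. Because the members were chosen with results known, their calls are a description and no support is drawn from them. In bulk tissue, fewer cells of a type and less RNA per cell cannot be told apart.

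The tissue labels fitted the defining markers. Slc34a1, a phosphate transporter of the proximal tubule, was between 1199 and 2692 in the 6 kidney groups and at most 0.490 in the 6 liver groups. Apoa1, a hepatocyte lipoprotein, was between 10212 and 14716 in the liver groups and at most 14.0 in the kidney groups. Alb, the hepatocyte albumin, was listed at 0 in all 3 groups of 12-week liver but was 45204 or higher in 18-month liver, so a value listed at 0 in the 12-week table can be a failed estimate. At 18 months the median over genes that reached a mean of 1 was shifted upward in CasM and ShamF against ShamM, by 0.13 and 0.11 in kidney and by 0.12 and 0.14 in liver, on the log2(mean + 1) scale. The authors' 18-month folds had medians between -0.05 and 0.03 over the same genes, so those folds are the ones given below with an error for single genes. Ratios of CasM or ShamF means over ShamM means at 18 months are also given, and they carry the upward shift. Medians of gene lists are of the difference in log2(mean + 1) and stand beside the median of all genes.

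The metallothioneins showed the widest spread between groups in liver. Mt1 averaged 699.7 FPKM in CasM, 855 FPKM in ShamF and 21.6 FPKM in ShamM liver at 12 weeks. At 18 months it averaged 563 in CasM, 508 in ShamF and 23.9 in ShamM liver. In both tables CasM and ShamF livers lay close together and ShamM livers lay far below, with CasM over ShamM at 32.4-fold at 12 weeks and 23.6-fold at 18 months. Mt2, the neighbouring gene with the same metal-binding role, averaged 154 FPKM in CasM, 213 FPKM in ShamF and 3.95 FPKM in ShamM liver at 12 weeks. The 18-month means were 234 in CasM, 254 in ShamF and 5.62 in ShamM liver. The order was that of Mt1 at 12 weeks, ShamF above CasM above ShamM. At 18 months Mt1 was highest in CasM and Mt2 in ShamF, and neither was called between CasM and ShamF in the authors' deposited table, with log2 folds of 0.20 ± 0.36 for Mt1 (implied SE, DESeq2 adjusted p = 0.979) and -0.06 ± 0.39 for Mt2 (adjusted p = 0.985).

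The authors' deposited 18-month table gave Mt1 a log2 fold of 4.40 ± 0.35 in liver for castration (implied SE, DESeq2 adjusted p = 1.41e-32) and of 4.21 ± 0.23 for sex (adjusted p = 5.47e-69). For Mt2 it gave 5.18 ± 0.45 for castration (authors' deposited table, DESeq2 adjusted p = 3.54e-28) and 5.25 ± 0.49 for sex (adjusted p = 1.34e-24). At 12 weeks both genes were listed for castration in liver and called higher, each at an adjusted p of 0.000856, and neither was listed for sex. Castration and sex share the ShamM libraries, so a low ShamM group moves both differences.

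In kidney the metallothioneins had the same order against ShamM with a far smaller span. Mt1 averaged 271 FPKM in CasM, 332 FPKM in ShamF and 142 FPKM in ShamM kidney at 12 weeks. At 18 months the means were 267 in CasM, 256 in ShamF and 141 in ShamM kidney. CasM over ShamM was 1.90-fold at 12 weeks and 1.89-fold at 18 months, against the 32.4-fold and 23.6-fold of liver. Mt2 averaged 86.1 FPKM in CasM, 89.8 FPKM in ShamF and 47.4 FPKM in ShamM kidney at 12 weeks, and 96.5 in CasM, 76.9 in ShamF and 54.3 in ShamM kidney at 18 months. In the authors' 18-month table Mt1 rose in kidney with castration by 0.80 ± 0.13 and with sex by 0.75 ± 0.18 (implied SE, DESeq2 adjusted p = 1.27e-08 and 0.000269). Mt2 rose with castration by 0.69 ± 0.20 (authors' deposited table, adjusted p = 0.0031), and its sex fold of 0.38 ± 0.29 was not called (adjusted p = 0.487). The difference between tissues was not tested.

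The order of the tissues depended on the group. Liver over kidney Mt1 was 2.58 in CasM, 2.57 in ShamF and 0.152 in ShamM at 12 weeks, and 2.11 in CasM, 1.99 in ShamF and 0.169 in ShamM at 18 months. ShamM was thus the group in which kidney held more Mt1 than liver, by 6.59-fold at 12 weeks and 5.90-fold at 18 months. Mt2 had the same pattern, with liver over kidney at 1.79 in CasM, 2.38 in ShamF and 0.0832 in ShamM at 12 weeks. The share of the pair that was Mt1 also moved in 18-month liver, where Mt1 over Mt2 was 2.41 in CasM, 1.996 in ShamF and 4.25 in ShamM.

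**Figure D1:**
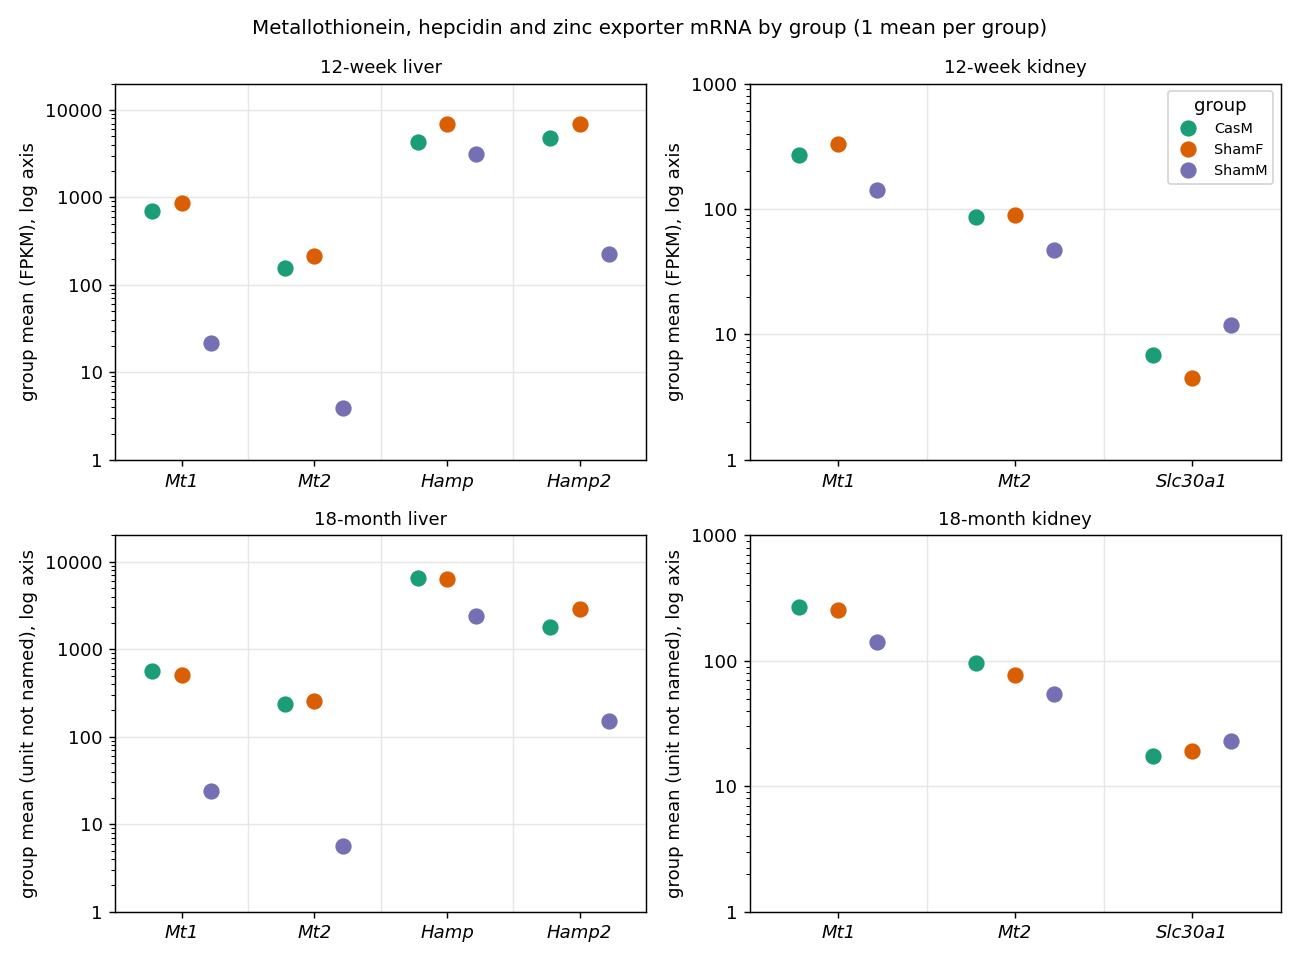
Group means on a log axis for the metallothioneins and hepcidins in liver (left) and the metallothioneins with the zinc exporter Slc30a1 in kidney (right), at 12 weeks in FPKM (top) and 18 months in a unit that is not named (bottom); each point is the authors' mean of 1 group. Mt1, Mt2 and Hamp2 of ShamM liver lie far below CasM and ShamF, while Hamp spans 4312, 6896 and 3162 FPKM in 12-week CasM, ShamF and ShamM liver.

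Slc30a1 encodes the zinc exporter ZnT1 of the plasma membrane, which is a target of MTF1 like the metallothioneins. In kidney its order was the reverse of theirs. It averaged 6.91 FPKM in CasM, 4.52 FPKM in ShamF and 11.9 FPKM in ShamM kidney at 12 weeks, and 17.5 in CasM, 18.9 in ShamF and 23.1 in ShamM kidney at 18 months. In the authors' 18-month table it fell in kidney with castration by 0.52 ± 0.11 and with sex by 0.41 ± 0.13 (implied SE, DESeq2 adjusted p = 4.90e-05 and 0.0102). At 12 weeks it was listed for sex in kidney and called lower (authors' deposited table, adjusted p = 0.000476). In liver, where the metallothioneins moved most, Slc30a1 averaged 5.46 FPKM in CasM, 5.83 FPKM in ShamF and 6.29 FPKM in ShamM at 12 weeks, and 7.52 in CasM, 9.21 in ShamF and 10.3 in ShamM at 18 months. No tested liver comparison of Slc30a1 was called, and the 18-month castration fold was -0.50 ± 0.33 (authors' deposited table, adjusted p = 0.759). Mtf1 itself, the zinc-sensing factor, averaged 4.03 FPKM in CasM, 3.64 FPKM in ShamF and 3.93 FPKM in ShamM liver at 12 weeks, and 2.11 in CasM, 2.10 in ShamF and 2.08 in ShamM liver at 18 months.

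Among 24 other zinc genes tested in 18-month liver, 1 rose and 0 fell with castration, and 1 rose and 0 fell with sex, where 2.09% and 9.78% of all tested genes were called. It was Slc39a4 in both, the zinc importer ZIP4. It averaged 33.7 in CasM, 32.9 in ShamF and 12.6 in ShamM, and its log2 folds were 1.28 ± 0.25 for castration and 1.17 ± 0.21 for sex (authors' deposited table, implied SE, DESeq2 adjusted p = 3.92e-05 and 3.30e-06). At 12 weeks the order of the same gene was the reverse, with 12.7 FPKM in CasM, 12.9 FPKM in ShamF and 25.8 FPKM in ShamM liver, and it fell with castration (authors' deposited table, adjusted p = 0.000856). Slc39a14, the importer ZIP14 that takes up zinc and iron in hepatocytes, averaged 83.0 FPKM in CasM, 69.8 FPKM in ShamF and 78.9 FPKM in ShamM liver at 12 weeks, and 57.0 in CasM, 60.4 in ShamF and 41.8 in ShamM liver at 18 months, where neither comparison was called. In 18-month kidney, 1 of 25 zinc genes tested rose and 8 fell with castration, and 5 of 24 rose and 3 fell with sex, where 22.7% and 16.8% of all tested genes were called. Slc30a2, a vesicular zinc transporter, averaged 11.5 in CasM, 9.73 in ShamF and 32.3 in ShamM kidney, and Slc39a5, the importer ZIP5, averaged 31.8 in CasM, 43.4 in ShamF and 16.6 in ShamM kidney. Over the zinc genes that reached a mean of 1, the median differences were -0.08 for castration and 0.05 for sex in 18-month kidney, against 0.13 and 0.11 for all such genes, and 0.07 for castration and 0.03 for sex in liver, against 0.12 and 0.14.

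Glucocorticoid response genes stood beside the metallothioneins as follows. In 12-week liver the median difference of 11 such genes was -0.46 for castration and -0.59 for sex, against -0.02 for all genes in both, and with castration 2 of 7 tested rose and 5 fell, where 41.7% of all tested genes were called. In 18-month liver the median was 0.61 for castration and 0.69 for sex, against 0.12 and 0.14 for all genes. With castration 0 of 11 were called there, against 2.09% of all tested genes. With sex 2 of 11 rose, Fkbp5 and Gadd45g, and 0 fell, against 9.78%. Fkbp5, a chaperone partner of the glucocorticoid receptor, averaged 37.0 in ShamF and 12.0 in ShamM liver at 18 months. In 18-month kidney 5 of 11 rose and 0 fell with castration, against 22.7% of all tested genes called, and 7 rose and 1 fell with sex, against 16.8%. Over the list's genes that reached a mean of 1, the kidney medians were 1.01 for castration (11 genes) and 0.97 for sex (10 genes), against 0.13 and 0.11 for all such genes. In 12-week kidney 3 of 5 tested rose and 2 fell with castration, against 70.7% of all tested genes called, and the median over 9 genes was 0.14, against 0.01 for all genes. With sex 0 of 2 tested rose and 2 fell there, against 86.5% of all tested genes called. The sex median over 9 genes was -0.04, against -0.01 for all genes. Fkbp5 averaged 7.87 FPKM in CasM and 28.7 FPKM in ShamM kidney at 12 weeks and was called lower (authors' deposited table, adjusted p = 0.000476). Sgk1, a kinase that regulates sodium transport, averaged 68.0 FPKM in CasM and 46.8 FPKM in ShamM kidney at 12 weeks. At 18 months it averaged 285 in CasM, 265 in ShamF and 87.9 in ShamM kidney. Whether these genes have a part in the metallothionein differences was not tested.

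The hepcidin copies differed from each other mainly in ShamM liver. Hamp averaged 4312 FPKM in CasM, 6896 FPKM in ShamF and 3162 FPKM in ShamM liver at 12 weeks, and 6453 in CasM, 6359 in ShamF and 2404 in ShamM liver at 18 months. Hamp2 averaged 4804 FPKM in CasM, 6928 FPKM in ShamF and 227 FPKM in ShamM liver at 12 weeks, and 1783 in CasM, 2883 in ShamF and 149 in ShamM liver at 18 months. ShamM was lowest for both genes at both ages, but by far more for Hamp2. CasM over ShamM was 1.36-fold for Hamp and 21.1-fold for Hamp2 at 12 weeks, and 2.68-fold for Hamp and 11.9-fold for Hamp2 at 18 months. ShamF over ShamM was 2.18-fold for Hamp and 30.5-fold for Hamp2 at 12 weeks, and 2.64-fold for Hamp and 19.3-fold for Hamp2 at 18 months.

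Within a group, the ratio Hamp2 over Hamp was 1.11 in CasM, 1.005 in ShamF and 0.0719 in ShamM liver at 12 weeks. At 18 months it was 0.276 in CasM, 0.453 in ShamF and 0.0621 in ShamM liver. Near-equal amounts of the copies were thus listed in 12-week CasM and ShamF livers, whereas Hamp2 was a small part of hepcidin mRNA in ShamM livers at both ages. Summed over both copies, hepcidin mRNA was 9116 FPKM in CasM, 13823 FPKM in ShamF and 3389 FPKM in ShamM liver at 12 weeks, and 8236 in CasM, 9242 in ShamF and 2553 in ShamM liver at 18 months. Transcript lengths of 410 and 420 bases mean that scaling by length would change the 18-month ratio little.

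In the authors' deposited 18-month table Hamp2 rose in liver with castration by 3.42 ± 0.54 and with sex by 4.07 ± 0.97 (implied SE, DESeq2 adjusted p = 5.76e-08 and 0.00108). Hamp rose with sex by 1.17 ± 0.24 (authors' deposited table, adjusted p = 6.39e-05). Its castration fold of similar size, 1.23 ± 0.49, carried a larger implied error and was not called (authors' deposited table, adjusted p = 0.289). Between CasM and ShamF, the fold was 0.07 ± 0.49 for Hamp and -0.64 ± 0.49 for Hamp2, neither called (authors' deposited table, adjusted p = 0.987 and 0.783). At 12 weeks Hamp2 was listed for castration in liver and called higher (authors' deposited table, adjusted p = 0.000856), and Hamp was listed for sex and called higher (adjusted p = 0.0396).

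**Figure D2:**
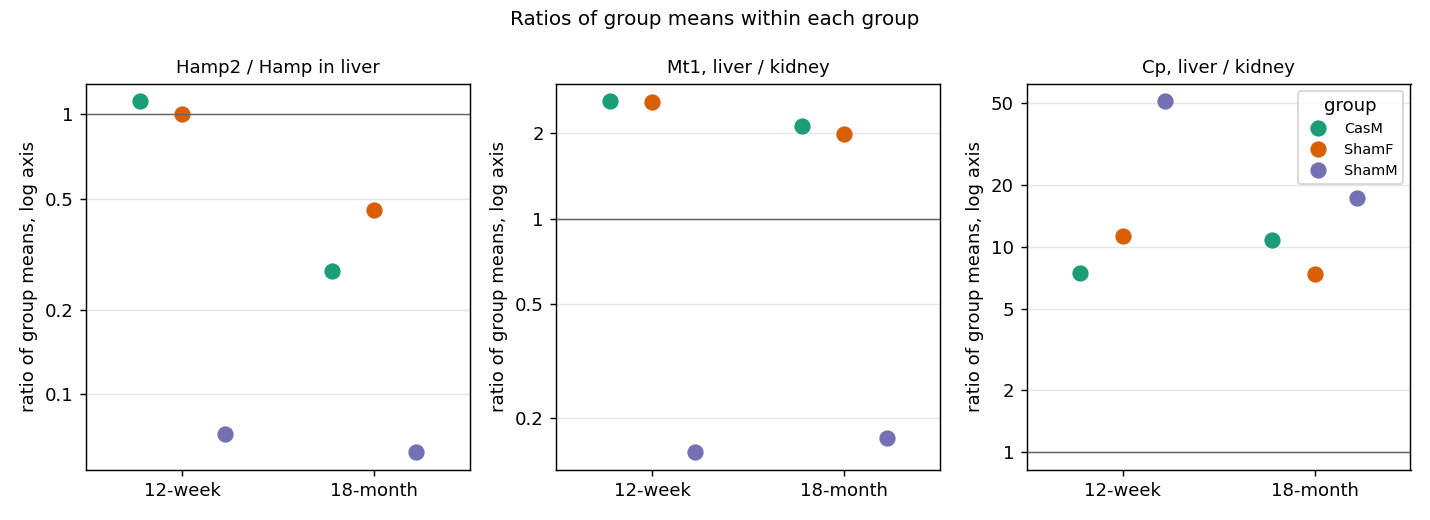
Ratios of the authors' group means within each group, on log axes with a line at 1: Hamp2 over Hamp in liver (left), Mt1 in liver over kidney (middle) and Cp in liver over kidney (right), at both ages. ShamM stands apart in each panel at 12 weeks, with ratios of 0.0719, 0.152 and 51.2.

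In kidney the hepcidins were low in most groups, and the highest mean was that of Hamp in 18-month CasM. Hamp averaged 0.0497 FPKM in CasM, 0.841 FPKM in ShamF and 0.264 FPKM in ShamM at 12 weeks, and 8.30 in CasM, 0.187 in ShamF and 1.48 in ShamM at 18 months. Hamp2 averaged 0.0858 FPKM in CasM, 1.16 FPKM in ShamF and 0.344 FPKM in ShamM at 12 weeks, and at 18 months 1.19 in CasM, 0.163 in ShamM and listed at 0 in ShamF. No kidney comparison of either was called, and at 18 months the implied errors were between 1.85 and 4.08 on the log2 scale. Hepatocyte markers moved beside them in the 18-month kidneys. The 8 markers summed to 199.7 in CasM, 89.4 in ShamF and 149 in ShamM, with Alb at 65.1 in CasM, 12.8 in ShamF and 21.7 in ShamM. Ttr, another of the 8, averaged 53.9 in CasM, 61.6 in ShamF and 98.0 in ShamM and was called lower in both comparisons with ShamM. Their part in the kidney hepcidin values was not tested.

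The regulators of hepcidin had smaller differences than Hamp2. Bmp6, the BMP ligand that responds to iron in liver, averaged 0.825 FPKM in CasM, 0.665 FPKM in ShamF and 0.699 FPKM in ShamM liver at 12 weeks, and 1.35 in CasM, 2.41 in ShamF and 1.24 in ShamM liver at 18 months. No tested liver comparison of Bmp6 was called, and its 18-month sex fold was 0.75 ± 0.27 (authors' deposited table, implied SE, DESeq2 adjusted p = 0.0571). Tfr2, the hepatocyte transferrin receptor that senses iron, was nearly level, with 146 FPKM in CasM, 172 FPKM in ShamF and 163 FPKM in ShamM liver at 12 weeks, and 156 in CasM, 148 in ShamF and 148 in ShamM liver at 18 months. Its 18-month liver folds were -0.09 ± 0.19 for castration and -0.21 ± 0.13 for sex, neither called (authors' deposited table, adjusted p = 0.983 and 0.377). Id1, a transcriptional inhibitor that is a standard BMP and SMAD target, was lowest in ShamM liver at both ages, as Hamp2 was. It averaged 20.9 FPKM in CasM, 33.2 FPKM in ShamF and 8.83 FPKM in ShamM liver at 12 weeks, and 40.0 in CasM, 25.2 in ShamF and 6.77 in ShamM liver at 18 months. It was listed at 12 weeks for CasM against ShamF and called lower (authors' deposited table, adjusted p = 0.000856). At 18 months Id1 rose with sex by 1.69 ± 0.29 (authors' deposited table, adjusted p = 4.05e-07), and its castration fold of 2.31 ± 0.82 was not called (adjusted p = 0.154). Smad7, the inhibitory SMAD that BMP signalling induces in hepatocytes, averaged 5.01 in CasM, 4.50 in ShamF and 2.79 in ShamM liver at 18 months, with neither comparison called (authors' deposited table, adjusted p = 0.813 and 0.0889).

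Genes that restrain or permit hepcidin expression were measured beside these. Tmprss6, the protease that cuts the BMP co-receptor hemojuvelin and so lowers hepcidin, averaged 71.4 FPKM in CasM, 78.1 FPKM in ShamF and 96.7 FPKM in ShamM liver at 12 weeks, where it fell with castration (authors' deposited table, adjusted p = 0.0381). Its means at 18 months were 145 in CasM, 152 in ShamF and 163 in ShamM liver, and neither comparison with ShamM was called. Hfe, the haemochromatosis protein that acts with Tfr2, averaged 18.0 FPKM in CasM, 21.5 FPKM in ShamF and 28.5 FPKM in ShamM liver at 12 weeks, where it fell with castration (authors' deposited table, adjusted p = 0.00399). Hfe averaged 16.2 in CasM, 19.8 in ShamF and 15.3 in ShamM liver at 18 months and was not called. Hjv, which encodes hemojuvelin, averaged 62.2 in CasM, 44.0 in ShamF and 47.6 in ShamM liver at 18 months, and was higher in CasM than in ShamF by a log2 fold of 0.56 ± 0.16 (authors' deposited table, implied SE, DESeq2 adjusted p = 0.0380). Il6ra, a receptor chain for interleukin 6, averaged 9.91 in CasM, 20.2 in ShamF and 8.89 in ShamM liver, and its log2 fold of CasM over ShamF was -0.97 ± 0.17 (authors' deposited table, implied SE, DESeq2 adjusted p = 1.62e-05). Of the hepcidin regulation list, 1 of 26 genes rose and 0 fell with castration in 18-month liver, against 2.09% of all tested genes called, and 5 of 25 rose and 0 fell with sex, against 9.78%. The 5 were Bmp2, Smad6, Id1, Il6ra and Socs3, of which Bmp2 is the second endothelial BMP ligand and Socs3 a target of STAT3. Socs3 was the 1 gene that rose with castration. Over its genes that reached a mean of 1, the median difference was 0.13 for castration and 0.31 for sex, against 0.12 and 0.14 for all such genes.

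Endothelial and macrophage markers moved beside these genes in liver. All 9 endothelial markers rose with sex at 18 months and 0 with castration, against 9.78% and 2.09% of all tested genes called. The endothelial sum was 83.8 in CasM, 152 in ShamF and 70.2 in ShamM. Of 12 macrophage and Kupffer cell markers, 6 rose with sex and 0 with castration, against the same shares. The macrophage sum was 183 in CasM, 481 in ShamF and 120 in ShamM. At 12 weeks 3 of 5 tested endothelial markers rose with castration, Stab2, Fcgr2b and Kdr, where 41.7% of all tested genes were called. The endothelial sum was then 180 FPKM in CasM, 154 FPKM in ShamF and 111 FPKM in ShamM liver. All 3 tested macrophage markers, Csf1r, C1qa and C1qb, also rose with castration at 12 weeks, against the same 41.7%. The macrophage sum was then 143 FPKM in CasM, 258 FPKM in ShamF and 84.6 FPKM in ShamM liver. Clec4f, which defines Kupffer cells, was 25.9 in CasM, 49.3 in ShamF and 15.4 in ShamM at 18 months. Their part in the liver values of Bmp6, Bmp2 and Slc40a1 was not tested.

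Tmprss6 had another pattern in kidney, where its level was low. It averaged 0.247 FPKM in CasM, 2.49 FPKM in ShamF and 0.0336 FPKM in ShamM at 12 weeks, and 1.40 in CasM, 9.82 in ShamF and 0.15 in ShamM at 18 months. At 18 months it rose with castration by 3.17 ± 0.47 and with sex by 6.02 ± 1.18 (authors' deposited table, implied SE, DESeq2 adjusted p = 5.62e-10 and 7.33e-06), and it was lower in CasM than in ShamF by a log2 fold of -2.84 ± 0.32 (adjusted p = 1.18e-15). In kidney Id1 averaged 99.2 FPKM in CasM, 92.8 FPKM in ShamF and 35.9 FPKM in ShamM at 12 weeks, and 91.3 in CasM, 65.8 in ShamF and 41.6 in ShamM at 18 months. Of 26 hepcidin regulation genes in 18-month kidney, 8 rose and 1 fell with castration, against 22.7% of all tested genes called, with Id3 at 168 in CasM and 96.2 in ShamM and Smad6 at 7.69 in CasM and 4.18 in ShamM. With sex, 4 rose and 1 fell, against 16.8% called.

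Bmp6 was higher in kidney than in liver in every group, by 9.06-fold in CasM, 8.98-fold in ShamF and 14.9-fold in ShamM at 12 weeks, and by 28.8-fold in CasM, 11.7-fold in ShamF and 27.8-fold in ShamM at 18 months. It averaged 7.47 FPKM in CasM, 5.97 FPKM in ShamF and 10.4 FPKM in ShamM kidney at 12 weeks, and 38.8 in CasM, 28.1 in ShamF and 34.4 in ShamM kidney at 18 months. ShamF was lowest in kidney at both ages, whereas CasM was below ShamM at 12 weeks and above it at 18 months. At 12 weeks Bmp6 was listed for sex in kidney and called lower (authors' deposited table, adjusted p = 0.000476). At 18 months its kidney folds were -0.43 ± 0.17 for sex and 0.46 ± 0.17 for CasM over ShamF, both just short of a call (authors' deposited table, DESeq2 adjusted p = 0.0763 and 0.0791), and 0.02 ± 0.12 for castration (adjusted p = 0.953). Tfr2 was low in kidney, at 0.367 FPKM in CasM, 0.251 FPKM in ShamF and 0.263 FPKM in ShamM at 12 weeks, and at 0.852 in CasM, 0.33 in ShamF and 0.567 in ShamM at 18 months. Its 18-month fold between CasM and ShamF was 1.38 ± 0.34 (authors' deposited table, adjusted p = 0.00192).

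**Figure D3:**
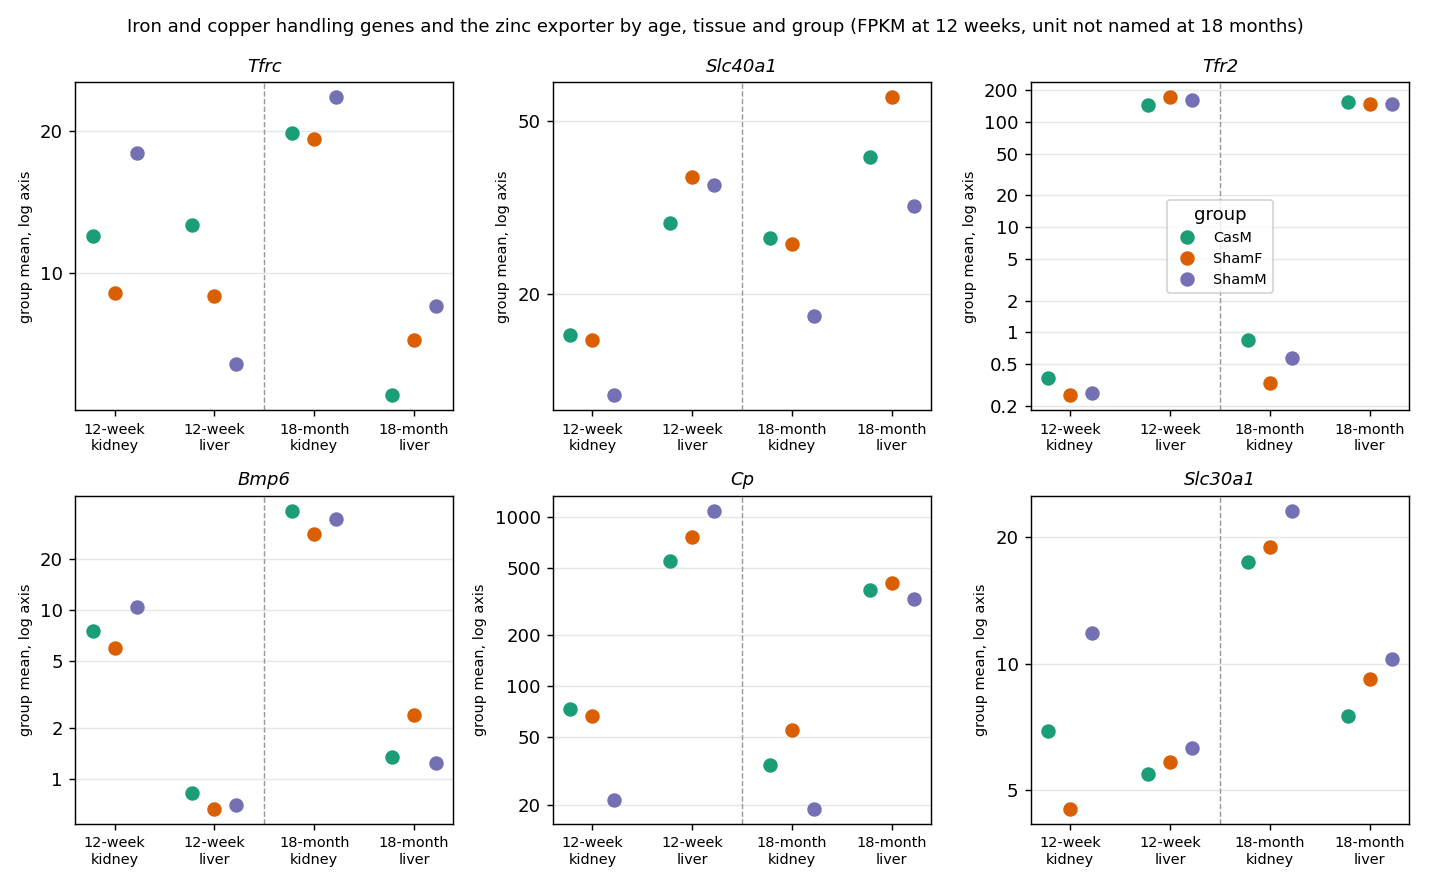
Group means on log axes for Tfrc, Slc40a1, Tfr2, Bmp6, Cp and Slc30a1 in each tissue and age, in FPKM at 12 weeks and in an unnamed unit at 18 months (a dashed line separates the ages); each point is 1 group. ShamM is highest for Tfrc and lowest for Slc40a1 and Cp in kidney at both ages, while Cp in 12-week liver is highest in ShamM at 1088 FPKM.

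The importer and the exporter of iron moved in opposite directions in kidney. Tfrc averaged 12.0 FPKM in CasM, 9.05 FPKM in ShamF and 17.9 FPKM in ShamM kidney at 12 weeks, and 19.8 in CasM, 19.2 in ShamF and 23.6 in ShamM kidney at 18 months. Slc40a1 averaged 16.1 FPKM in CasM, 15.7 FPKM in ShamF and 11.7 FPKM in ShamM kidney at 12 weeks, and 26.9 in CasM, 26.1 in ShamF and 17.9 in ShamM kidney at 18 months. ShamM kidneys had the highest Tfrc and the lowest Slc40a1 at both ages. At 12 weeks both were listed for castration, with Tfrc called lower and Slc40a1 called higher (authors' deposited table, adjusted p = 0.000476 and 0.0230). At 18 months Slc40a1 rose with castration by 0.42 ± 0.16 (authors' deposited table, implied SE, DESeq2 adjusted p = 0.0401), and its sex fold of 0.41 ± 0.20 was not called (adjusted p = 0.159). Tfrc fell with sex by 0.42 ± 0.15 (authors' deposited table, adjusted p = 0.0295), and its castration fold of -0.41 ± 0.16 was not called (adjusted p = 0.0571).

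In liver Tfrc had a different order at each age. It averaged 12.6 FPKM in CasM, 8.94 FPKM in ShamF and 6.41 FPKM in ShamM at 12 weeks, and 5.50 in CasM, 7.20 in ShamF and 8.49 in ShamM at 18 months. At 12 weeks CasM was highest and Tfrc was called higher with castration (authors' deposited table, adjusted p = 0.000856). At 18 months CasM was lowest and the fold of -0.84 ± 0.37 was not called (authors' deposited table, DESeq2 adjusted p = 0.386). The ages were processed as separate tables, so the difference between them was not tested. Slc40a1 averaged 29.1 FPKM in CasM, 37.2 FPKM in ShamF and 35.7 FPKM in ShamM liver at 12 weeks, and 41.3 in CasM, 56.6 in ShamF and 31.9 in ShamM liver at 18 months. It rose with sex at 18 months by 0.60 ± 0.20 (authors' deposited table, adjusted p = 0.0338), while its castration fold of 0.19 ± 0.22 was not called (adjusted p = 0.934).

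Of the other genes of iron uptake, storage and export, 6 of 24 rose and 6 fell with castration in 18-month kidney, against 22.7% of all tested genes called, and 6 rose and 3 fell with sex, against 16.8%. Trf, the plasma iron carrier transferrin, averaged 99.9 in CasM, 73.3 in ShamF and 25.6 in ShamM kidney, and rose by 1.82 ± 0.20 with castration and by 1.40 ± 0.23 with sex (authors' deposited table, implied SE, DESeq2 adjusted p = 2.68e-17 and 6.82e-08). At 12 weeks Trf had the same order in kidney, with 66.1 FPKM in CasM, 51.6 FPKM in ShamF and 26.2 FPKM in ShamM. Fth1, the heavy chain of the iron store ferritin, averaged 2452 FPKM in CasM, 2545 FPKM in ShamF and 4659 FPKM in ShamM kidney at 12 weeks, and 4490 in CasM, 3893 in ShamF and 4841 in ShamM kidney at 18 months. It fell at 18 months with castration by 0.25 ± 0.07 and with sex by 0.44 ± 0.08 (authors' deposited table, adjusted p = 0.00361 and 9.47e-07). Ftl1, the ferritin light chain, averaged 3778 in CasM, 3573 in ShamF and 3178 in ShamM kidney at 18 months and was not called. Steap3, an iron reductase of endosomes, averaged 3.68 in CasM, 15.8 in ShamF and 2.91 in ShamM kidney and rose with sex by 2.32 ± 0.26 (authors' deposited table, adjusted p = 1.78e-16). Its log2 fold of CasM over ShamF was -2.12 ± 0.23 (authors' deposited table, implied SE, DESeq2 adjusted p = 3.21e-17). In 18-month liver 1 of 24 rose and 2 fell with castration, and the same counts held for sex, against 2.09% and 9.78% of all tested genes called. The gene that rose in both was Lcn2, a siderophore-binding protein of the acute phase, with 49.6 in CasM, 120 in ShamF and 6.32 in ShamM liver.

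Cp encodes ceruloplasmin, the copper ferroxidase that loads exported iron onto transferrin, and its order differed between tissues. In kidney it averaged 73.1 FPKM in CasM, 66.8 FPKM in ShamF and 21.2 FPKM in ShamM at 12 weeks, and 34.1 in CasM, 55.4 in ShamF and 18.9 in ShamM at 18 months. In liver it averaged 545 FPKM in CasM, 756 FPKM in ShamF and 1088 FPKM in ShamM at 12 weeks, and 369 in CasM, 409 in ShamF and 326 in ShamM at 18 months. ShamM was thus lowest in kidney at both ages, highest in liver at 12 weeks, and close to the others in liver at 18 months. At 12 weeks Cp was called higher in kidney and lower in liver with castration (authors' deposited table, adjusted p = 0.000476 and 0.00343). At 18 months it rose in kidney with castration by 0.68 ± 0.18 and with sex by 1.34 ± 0.22 (authors' deposited table, implied SE, DESeq2 adjusted p = 0.00157 and 4.65e-08). It was also lower in CasM than in ShamF kidney, by a log2 fold of -0.65 ± 0.17 (authors' deposited table, adjusted p = 0.00412). In 18-month liver its folds were 0.03 ± 0.20 for castration and 0.10 ± 0.22 for sex, neither called.

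Liver over kidney Cp was 7.46 in CasM, 11.3 in ShamF and 51.2 in ShamM at 12 weeks, and 10.8 in CasM, 7.38 in ShamF and 17.3 in ShamM at 18 months. Among 10 copper handling genes in 18-month kidney, 0 rose and 2 fell with castration, against 22.7% of all tested genes called, and 0 rose and 3 fell with sex, against 16.8%. Slc31a1, the copper importer CTR1, fell in both comparisons, with 52.6 in CasM, 55.5 in ShamF and 65.0 in ShamM kidney. Atp7b, the copper pump that loads ceruloplasmin in hepatocytes, averaged 7.75 FPKM in CasM, 5.96 FPKM in ShamF and 4.34 FPKM in ShamM liver at 12 weeks, and 6.66 in CasM, 7.11 in ShamF and 5.94 in ShamM liver at 18 months. It was called higher with sex at 12 weeks (authors' deposited table, adjusted p = 0.0465).

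**Figure D4:**
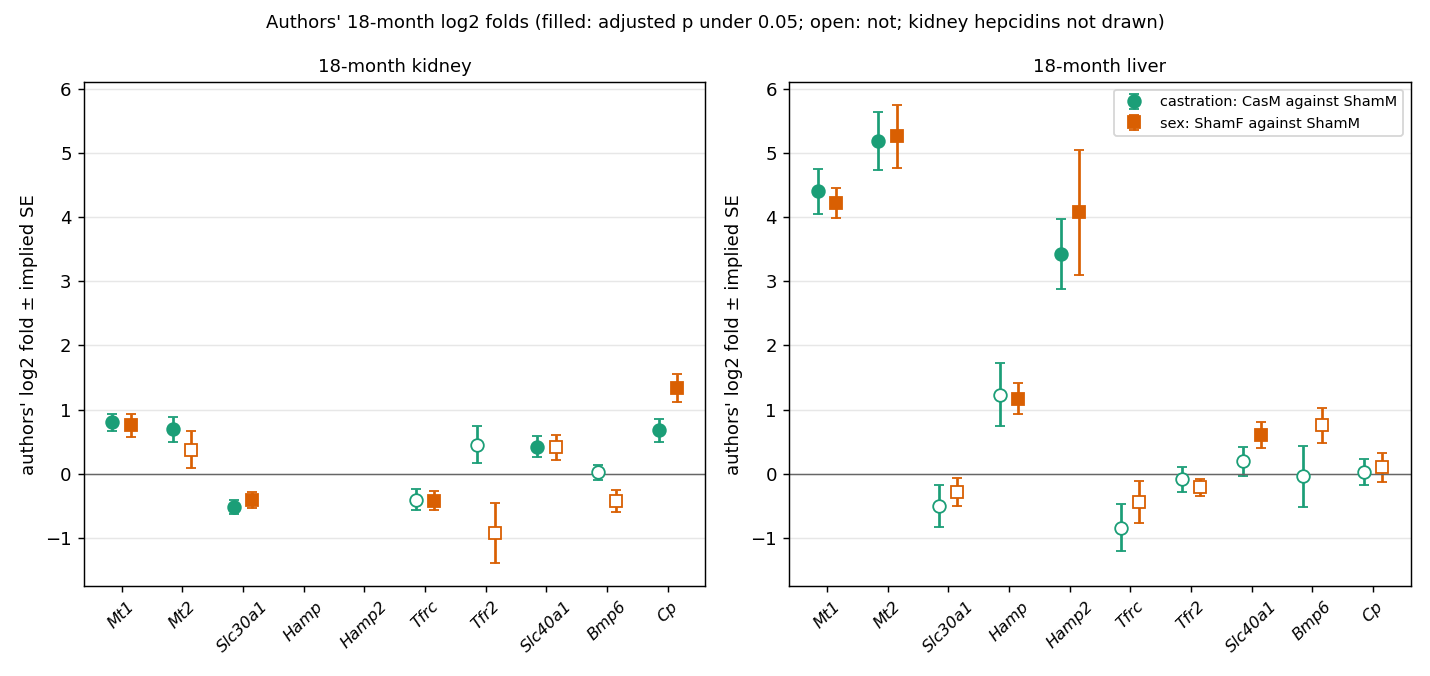
The authors' 18-month log2 folds for the 10 genes in kidney (left) and liver (right), with bars of 1 standard error implied by the fold and its p, where circles are CasM over ShamM, squares ShamF over ShamM, and filled symbols have an adjusted p under 0.05. In liver Mt1, Mt2 and Hamp2 lie between 3.42 and 5.25 and Hamp at 1.23 and 1.17, and the kidney hepcidins, whose implied errors lay between 1.85 and 4.08, are not drawn.

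Heme handling genes changed in both directions in kidney. With castration 2 of 19 rose and 7 fell at 18 months, against 22.7% of all tested genes called, and with sex 3 rose and 5 fell, against 16.8%. Hmox1, the heme oxygenase that frees iron from heme, averaged 5.15 FPKM in CasM, 4.62 FPKM in ShamF and 20.4 FPKM in ShamM kidney at 12 weeks, and 18.2 in CasM, 14.9 in ShamF and 32.6 in ShamM kidney at 18 months. At 18 months it fell with castration by 0.99 ± 0.14 and with sex by 1.25 ± 0.17 (authors' deposited table, implied SE, DESeq2 adjusted p = 4.90e-11 and 6.61e-12). Cpox, an enzyme of heme synthesis, averaged 27.7 in CasM, 19.99 in ShamF and 56.9 in ShamM kidney at 18 months and fell in both comparisons. Flvcr1 and Flvcr2, described as heme transporters, rose in both, with Flvcr2 at 10.8 in CasM, 21.5 in ShamF and 5.59 in ShamM kidney. In liver Hmox1 averaged 6.62 FPKM in CasM, 9.46 FPKM in ShamF and 5.24 FPKM in ShamM at 12 weeks, and 11.7 in CasM, 19.6 in ShamF and 8.92 in ShamM at 18 months. At 12 weeks it was listed in liver for CasM against ShamF and called lower (authors' deposited table, adjusted p = 0.0267).

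The metabolite tables hold products of heme breakdown as 1 mean relative abundance per group, with no number of animals, no scale and no test. Bilirubin, the end product of heme breakdown, was highest in ShamF at 12 weeks, with 0.0992 in CasM, 0.118 in ShamF and 0.0940 in ShamM kidney and 0.0335 in CasM, 0.0441 in ShamF and 0.0320 in ShamM liver. Protoporphyrin IX, the precursor of heme, was 0.0225 in CasM, 0.0142 in ShamF and 0.0248 in ShamM liver at 12 weeks. Heme in 18-month kidney was 0.0127 in CasM, 0.0109 in ShamF and 0.00838 in ShamM. Summed red cell markers in the same kidneys were 5298 in CasM, 2776 in ShamF and 3511 in ShamM, and their part in the heme values was not tested.

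Acute phase genes were set beside the hepcidins because interleukin 6 drives both. In 12-week liver their median difference was -0.36 for castration and -0.16 for sex, against -0.02 for all genes, and in 18-month liver 0.54 for castration and 0.66 for sex, against 0.12 and 0.14. At 18 months 2 of 17 rose with castration, Orm3 and Lbp, against 2.09% of all tested genes called, and 2 with sex, Orm3 and Serpina3n, against 9.78%. Orm3, an orosomucoid, averaged 18.4 in CasM, 22.8 in ShamF and 2.66 in ShamM liver. At 12 weeks Orm3 averaged 10.7 FPKM in CasM and 0.719 FPKM in ShamM liver and was called higher with castration (authors' deposited table, adjusted p = 0.000856). It was the 1 acute phase gene of 8 tested there that rose. The 5 that fell were Orm1, Crp, Fga, Fgg and Il1r1, where 41.7% of all tested genes were called. Saa1, a serum amyloid, averaged 46.0 FPKM in CasM, 14.6 FPKM in ShamF and 21.7 FPKM in ShamM liver at 12 weeks, and 272 in CasM, 579 in ShamF and 57.5 in ShamM liver at 18 months, where no comparison was called (authors' deposited table, DESeq2 adjusted p = 0.224 for castration and 0.0677 for sex). At 12 weeks Saa1 was listed for CasM against ShamF and called higher (authors' deposited table, adjusted p = 0.000856). Whether the acute phase genes have a part in the Hamp2 values was not tested.

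Counted over the members, calls ran as follows, with the share of all tested genes called beside each count. At 18 months all 10 were tested in every comparison. In liver 3 were called for castration, against 2.09% of all genes, 5 for sex, against 9.78%, and 0 for CasM against ShamF, against 1.13%. In kidney 5 were called for castration, against 22.7%, 4 for sex, against 16.8%, and 2 for CasM against ShamF, against 7.14%. At an unadjusted p under 0.05, the 18-month liver comparison of CasM and ShamF had 0 of the 10 as well, by the same DESeq2 table. At 12 weeks the listing decides what could be called. In liver 5 of 7 members listed and tested for castration were called, against 41.7%, 1 of 1 for sex, against 100%, and 0 of 2 for CasM against ShamF, against 6.85%, where Slc40a1 had an unadjusted p of 0.0182. In kidney 3 of 3 were called for castration, against 70.7%, 4 of 4 for sex, against 86.5%, and 0 were tested for CasM against ShamF, where 7.69% of tested genes were called. Since the members were picked for their pattern in these comparisons, nothing is read from these counts.

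The genes whose group means most resembled a member were ranked by Pearson's r over the 12 group means, each centred on its own age and tissue, among 8822 genes. The points share the 3 arms in each tissue and age and no p is given. For Mt1 the 5 highest were Mt2 at 0.99, Nipal1, Cux2 and Gas6 at 0.98 and Slc16a5 at 0.975. For Hamp2 the 4 highest were Agxt at 0.99, Orm3 at 0.98 and Mt2 and Nipal1 at 0.97. For Tfrc, genes among the 5 highest were Slc1a2 at 0.95, Ugp2 at 0.94, Gnpnat1 at 0.92 and Ndel1 at 0.91. With the 18-month means alone, 0 of the 5 genes remained on any of these 3 lists. With the 12-week means alone, no gene of the Hamp2 list remained. With 0.1 in place of 1 added to the means, Agxt stayed on the Hamp2 list and the others named here did not. Coro1a and Clec4f then led it, at 0.92 and 0.91.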

How the data were processed

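RNA of kidney and liver was analysed in 46 libraries, grouped by age, tissue and arm from the labels. The submitters' processing notes name HISAT2, SAMtools, Cufflinks and mm10, without versions or settings. The authors deposited 1 mean per group, as FPKM for 12 weeks and as an expression signal of unnamed unit for 18 months. The lowest value in both tables, 0.01, was taken as listed at 0. The 12-week tests were deposited in the layout of Cuffdiff, with a score (the test statistic), a p-value and an adjusted p per gene, and a statistic of 0 was taken as not tested. The 18-month tests were deposited as log2 folds with p-values and adjusted values headed DESeq2, per the file headers. Their folds ran with ShamM or ShamF on top, so the sign was turned here. It then matched the group means in 100% of genes whose log2(mean + 1) differed by more than 1. Metabolite means are a relative abundance signal deposited per group. Serum tables and the 18-month liver metabolite table were not used here.

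Because no values per library were given, depth and spread are unknown and the authors' tests stand in for fits over libraries. Where nothing says that libraries came from separate animals, the authors' p-values may measure technical spread. Differences are of log2(mean + 1), which understates folds of low genes. The implied standard error is the absolute log2 fold over the normal quantile of its p, a step added after the data were seen. The members and gene lists were chosen with earlier results of these data known. Named besides the 10 members are, from 7 pathway lists, the 3 most different called genes per direction and comparison if their larger mean was 5 or more, and a fixed set of textbook partners. A few genes of similar pattern are not reported here. Smad6 and Socs3 in liver and single marker genes were named after their values were seen. Promoters came from the RefSeq table, which matched 9 of 10 members, and transcripts from GENCODE vM21, aligned with Biopython 1.88. Tables were handled with pandas 2.3.3, and the steps were tested on simulated group means. Alternatives were an adjusted p under 0.01, a 2-fold limit, a minimum mean of 1, pseudocounts of 0.1 and 5, centring on the median gene, and the authors' folds.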

Additional observations from a re-analysis of the deposited data

How the results depend on the processing

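No paired analysis was possible because the files hold 1 mean per group, and for the same reason no replicate could be left out. Counts depended on the limits of a call, and the lower counts under stricter limits follow from their construction. Counts that changed by a factor of 1.5 or less under a stricter limit are left out. When a 2-fold difference of mean + 1 was also required, the members called were 1 in place of 3 for 12-week kidney castration, 2 in place of 4 for 12-week kidney sex, 3 in place of 5 for 12-week liver castration, 0 in place of 5 for 18-month kidney castration, 1 in place of 4 for 18-month kidney sex and 0 in place of 2 for 18-month kidney CasM against ShamF. With an adjusted p under 0.01 they were 0 in place of 1 for 12-week liver sex and 2 in place of 4 for 18-month kidney sex. Slc40a1 also lost its calls at that limit, for castration in 12-week and 18-month kidney and for sex in 18-month liver. With genes of a mean of at least 1, the members called were 1 in place of 2 for 18-month kidney CasM against ShamF. All genes called at an adjusted p under 0.01 numbered 1791, 1673 and 181 for castration, sex and CasM against ShamF in 12-week kidney, 1401, 280 and 212 in 12-week liver, 717 for CasM against ShamF in 18-month kidney, and 865 for sex and 81 for CasM against ShamF in 18-month liver. With the 2-fold limit they numbered 371, 515 and 29 in 12-week kidney, 347, 85 and 50 in 12-week liver, 288, 461 and 178 in 18-month kidney, and 205, 592 and 82 in 18-month liver, in the same order. The calls as reported numbered 2722, 2606 and 433 in 12-week kidney, 2109, 628 and 383 in 12-week liver, 4051, 2964 and 1277 in 18-month kidney, and 353, 1630 and 191 in 18-month liver. Reversals were counted among called differences only. Of 120 member differences, no called one reversed, and centring moved 3, a pseudocount of 0.1 moved 9 and a pseudocount of 5 moved 8. The authors' folds moved 11 of 60 and reversed no called one. Some differences that were not called changed sign. With castration in 18-month liver, Tfr2 was at 0.08 by the group means and at -0.09 by the authors' fold. Low means limit the precision of low genes such as the kidney hepcidins.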

Other observations

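Alas2, the erythroid enzyme of heme synthesis and a mRNA with an iron responsive element in its 5′ UTR, had the reverse order of Hamp2 in liver and was singled out after its values were seen. It averaged 13.0 FPKM in CasM, 5.33 FPKM in ShamF and 57.5 FPKM in ShamM liver at 12 weeks, and 20.8 in CasM, 7.78 in ShamF and 70.1 in ShamM liver at 18 months. In the authors' tables it fell with castration in liver at both ages and with sex at 18 months. Of the 10 red cell and erythroid markers, Alas2 was the 1 that was called for castration or sex in 18-month liver. Of all tested genes, 2.09% and 9.78% were called there. The 10 markers summed to 1484 in CasM, 900.4 in ShamF and 995 in ShamM. In 12-week liver Alas2 was not alone. There 3 of 4 tested markers fell with castration, Hbb-bs, Alas2 and Bpgm, where 41.7% of all tested genes were called. In kidney Alas2 averaged 14.4 in CasM, 7.68 in ShamF and 10.1 in ShamM at 18 months.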
